A study of Mus musculus with 6 samples.

Results

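The genes of fatty acid oxidation and of the fasting response governed by the nuclear receptor PPAR alpha were followed here in the mouse stomach. The list held 32 genes, named by their function: the receptor and a coactivator, genes that respond to fasting, and the enzymes of beta-oxidation in mitochondria and peroxisomes. A probe belonged to a gene when its annotated symbol, or the current symbol of the same Entrez gene, was that of the gene. Of the 32 genes, 30 had a probe, with 56 of the 45281 probes on the array. Ucp2 and Acsl1 had no probe named here and were not analysed here. The list was chosen by function and by measured intensities, with the difference between arrays titled 1 to 3 and arrays titled 4 to 6 in view. Every value of that difference is therefore a description. Counts of genes past a threshold are printed for it beside the share of all named genes, and nothing is read from them.

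The study set Lasp1 knockout mice against wild type mice, with 3 arrays of each genotype. Lasp1 encodes a LIM and SH3 protein that binds actin. All samples were RNA of the fundic gastric mucosa, the acid-secreting lining of the stomach, from C57Bl/6Ncr mice at 3 months of age. The labels give neither the knockout allele nor any treatment or state of feeding. Titles 1 to 3 are knockout replicate 1, wild type replicate 1 and wild type replicate 2, and titles 4 to 6 are knockout replicate 2, wild type replicate 3 and knockout replicate 3. What the title numbers stand for is not given in the sources used here. Separate mice are not named for the arrays, so a p-value here speaks for the spread among these 6 samples, which may be technical.

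PPAR alpha binds long-chain fatty acids and, as a heterodimer with the retinoid X receptor, switches on genes that burn them. Fatty acids enter mitochondria through the carnitine shuttle and are cut there by rounds of dehydrogenation, hydration, a second dehydrogenation and thiolysis, while peroxisomes shorten other chains. During fasting these genes rise in liver, heart and muscle. The gastric parietal cell, which spends much ATP on pumping acid, is packed with mitochondria.

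Values are the authors' probe intensities, scaled so that each array had a median of 1000. Background had not been subtracted, so the bound for a signal was taken as the brightest of 13 probes of Y-linked genes on the same array, 1020 to 1212. This assumes that the Y-linked genes were silent in all 6 samples. Lasp1 (probe ILMN_2879746) was at 270957, 275068 and 177315 in wild type replicates 1 to 3 and at 88521, 111002 and 89823 in knockout replicates 1 to 3, so the genotypes did not overlap. In the model used below its difference was -1.23 ± 0.20 on the log2 scale, with a limma adjusted p of 0.399. Whether this probe lies inside the deleted part is not given in the sources used here. Atp4a, the proton pump subunit that defines parietal cells, read 438485 to 539091 over the 6 arrays. Other tissue was also present. Cela2a, a pancreatic elastase, read 647587 on wild type replicate 3 and 58913 on knockout replicate 3, and Lor, the squamous protein loricrin, 274920 on wild type replicate 2 and 399114 on knockout replicate 1. In whole mucosa, fewer cells of a type and less RNA per cell cannot be told apart.

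Differences were fitted with limma in 1 model with genotype and title-number set as terms, over the 22640 probes whose mean lay above that of the median probe, and a gene stands for its brightest probe. Of the 30 genes, 28 passed this filter and Ppara and Vnn1 did not. Differences between the sets are titles 1 to 3 minus titles 4 to 6, and between the genotypes knockout minus wild type, both on the log2 scale. Since background was left in, differences of dim probes are understated.

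Acot1, Angptl4 and Pdk4, which respond to fasting, were 3.63 to 15.1 times as bright on the arrays titled 1 to 3 as on those titled 4 to 6. As a description, 3 of the 28 genes, these same ones, had a limma adjusted p under 0.05 between the sets. Of 11868 named genes, 106 (0.893%) passed, and 98 of these (0.826% of all named genes) were higher on titles 1 to 3. Most enzymes of beta-oxidation were also brighter on titles 1 to 3, by smaller amounts. The 28 genes had a median difference of 0.57, against 0.18 over all kept probes, and 23 of them lay above that median of all probes. The sets did not overlap in 19 of the 28 genes, all higher on titles 1 to 3, where 19.5% of named genes did this. No gene was lower on titles 1 to 3 without overlap, as 3.74% of named genes were.

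The array of wild type replicate 3 weighs on these figures. It had the lowest value of the 6 arrays for 23 of the 28 genes, and for 64.9% of all kept probes. Without it the median difference of the 28 genes was 0.38, against 0.059 over all kept probes, with 22 genes above that median and the same 3 genes past the threshold. The comparison then rests, in effect, on knockout replicate 1 against knockout replicates 2 and 3. After quantile normalization of the 6 arrays the medians were 0.35 and -0.0046, with the same 3 genes past the threshold.

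**Figure D1:**
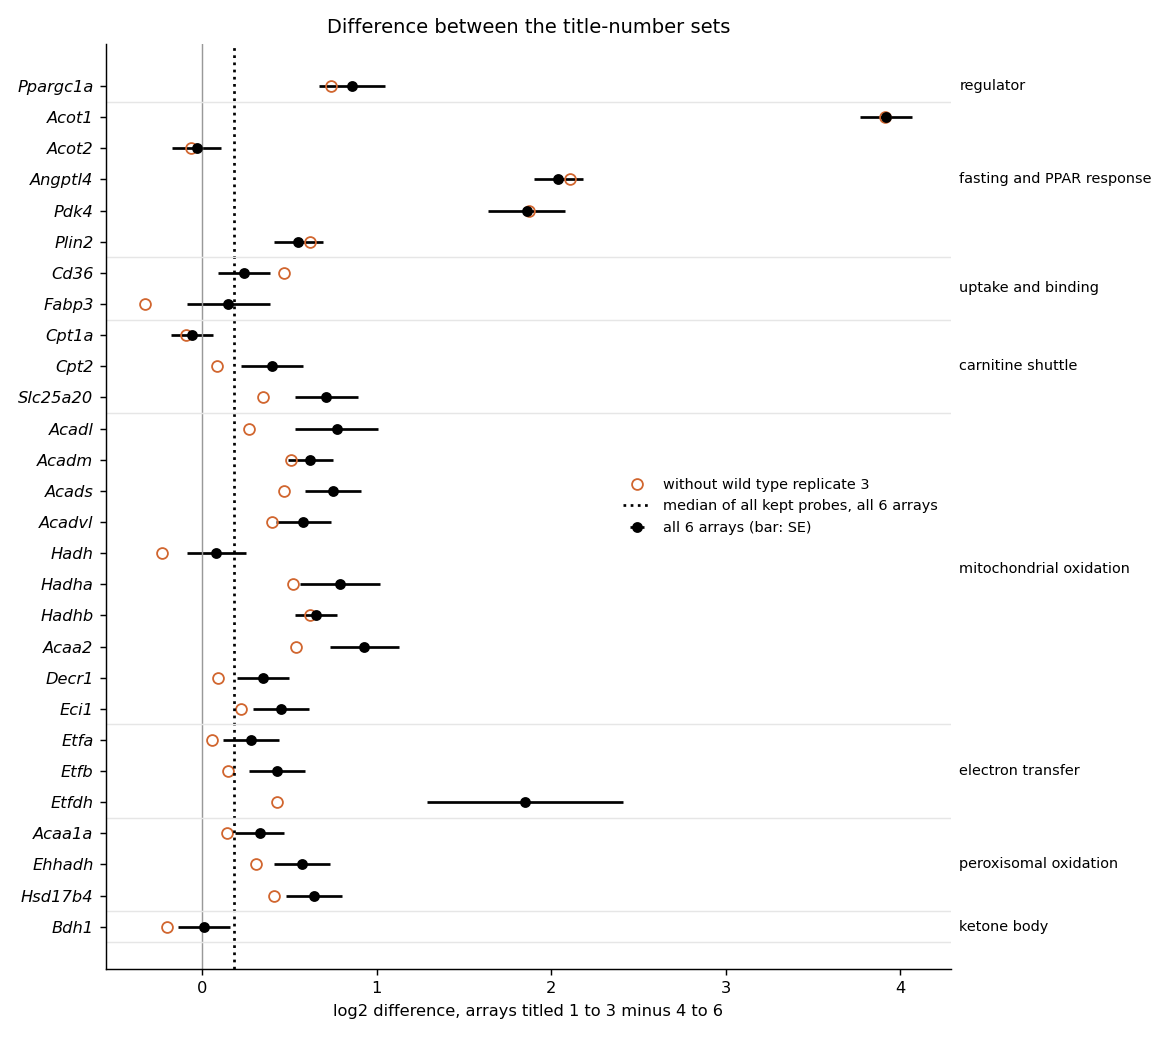
Differences between arrays titled 1 to 3 and 4 to 6 (log2, horizontal axis) for the 28 genes, in blocks by role. Filled points are the fit to all 6 arrays with bars of 1 standard error, open circles the fit without wild type replicate 3, and the dotted line is the median of all kept probes at 0.18. Acot1 at 3.92, Angptl4 at 2.04 and Pdk4 at 1.86 keep their place without that array, while Etfdh goes from 1.85 to 0.43.

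The regulators come first. Ppara, which encodes PPAR alpha itself, read 726 to 869 over the 6 arrays. It was not above background on any array, so these data give no level for the receptor's transcript. Ppargc1a encodes the coactivator PGC-1 alpha, which drives mitochondrial genes. It read 8975, 9878 and 6214 on titles 1 to 3 and 5386, 3983 and 5378 on titles 4 to 6. All arrays of the first set were above all of the second. The difference was 0.86 ± 0.19 (standard error of the fit, as for every ± beside a log2 difference, with 3 arrays in each set), and 0.74 without wild type replicate 3.

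Acot1 differed most of all 28 genes. It encodes the cytosolic acyl-CoA thioesterase 1, which splits long-chain acyl-CoA into fatty acid and CoA and is induced by PPAR alpha. Its brightest probe, ILMN_3139875, read 50752, 45752 and 33706 on titles 1 to 3 and 3588, 2573 and 3192 on titles 4 to 6. The lowest array of the first set was far above the highest of the second, and both genotypes lay at either level. The difference was 3.92 ± 0.15, or 15.1-fold, and came to 3.93 within the wild type arrays and 3.91 within the knockout arrays. By size the difference ranked 40 of all 22640 kept probes. A second probe, ILMN_3062267, read 5743, 5392 and 4228 against 1005, 909 and 1127. None of its 3 arrays in the second set was above background, so its difference is given as at least 4.27-fold, the bright set against the higher of the probe's own value and the background bound. The remaining probe, ILMN_2768647, was not kept.

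Angptl4 encodes a secreted inhibitor of lipoprotein lipase that holds back fat uptake during fasting. It read 5211, 5570 and 4354 on titles 1 to 3 and 1156, 1250 and 1263 on titles 4 to 6. All 3 arrays of the first set were bright, and in the second 2 of 3 were just above background. The difference was 2.04 ± 0.14, or 4.12-fold, with 1.98 within the wild type arrays and 2.11 within the knockout arrays.

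Pdk4 encodes the pyruvate dehydrogenase kinase that closes off glucose oxidation when fat is burned. It read 52374, 36817 and 58348 on titles 1 to 3 and 12055, 12800 and 17096 on titles 4 to 6. The sets did not overlap, and wild type and knockout arrays stood side by side at each level. The difference was 1.86 ± 0.22, or 3.63-fold, with 1.86 within the wild type arrays and 1.87 within the knockout arrays. Pdk4 no longer passed the threshold without wild type replicate 2, knockout replicate 2 or knockout replicate 3, and Angptl4 no longer without knockout replicate 3.

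**Figure D2:**
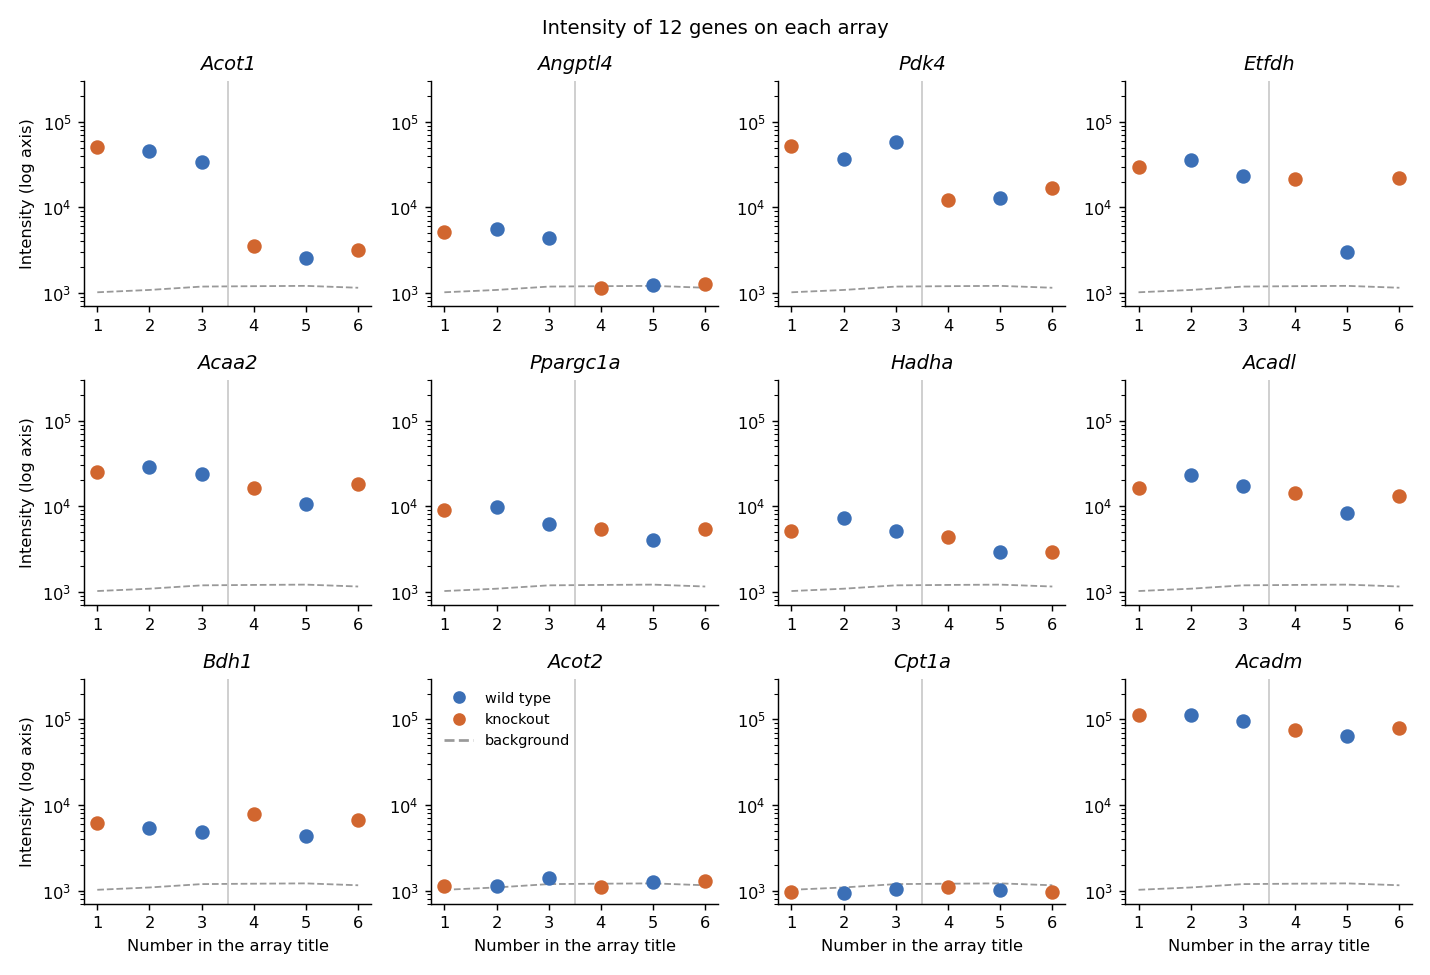
Intensity (vertical log axis) of 12 genes on each of the 6 arrays, by the number in the array title, with wild type in blue and knockout in orange; the vertical line parts titles 1 to 3 from 4 to 6 and the dashed line is the background bound of 1020 to 1212. Acot1, Angptl4 and Pdk4 step down between title 3 and title 4 in both genotypes, Etfdh is low only on title 5, and Acot2 and Cpt1a lie along the background.

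Plin2, which coats lipid droplets, was dimmer, at 1313 to 1851 on titles 1 to 3 and 1058 to 1272 on titles 4 to 6. Only 1 of 3 arrays of the second set was above background there, and the difference was 0.55 ± 0.14. Acot2 encodes the mitochondrial counterpart of Acot1 and is its neighbour in the gene table. It read 1137, 1125 and 1393 against 1105, 1248 and 1280. These values overlapped and stayed close to background, with a difference of -0.031 ± 0.14. Vnn1, which encodes the pantetheinase vanin 1, was not above background on any array.

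Acot1 lies in a run of thioesterase genes, which the RefSeq table orders as Acot2, Acot1, the noncoding Gm40474, Acot4, Acot3 and Acot5. Acot3, a peroxisomal thioesterase, read 1233, 1534 and 1185 on titles 1 to 3 and 964, 961 and 883 on titles 4 to 6. Acot4, another peroxisomal member, read 1560, 1248 and 1220 against 873, 962 and 988. On titles 4 to 6 neither was above background on any array, and by the same bound Acot3 was at least 1.1-fold and Acot4 at least 1.12-fold higher on titles 1 to 3. The genes of the run are similar in sequence, and whether their probes share targets was not tested.

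The stretches before the start sites of 3 of these genes are shown, because Acot1 and Pdk4 had sets that lay far apart, while Acot2, next to Acot1, read close to background on all arrays. They are the 250 bases upstream of the start in RefSeq, build GRCm38.p6, Acot1 at chr12:84009252-84009501 on the plus strand, Acot2 at chr12:83987611-83987860 on the plus strand and Pdk4 at chr6:5496279-5496528 on the minus strand, each written 5′ to 3′ along its gene. All letters are in lower case, since no stretch within them was singled out. Windows of this kind were held for 27 of the 32 genes, and Angptl4 was not among them.
Acot1: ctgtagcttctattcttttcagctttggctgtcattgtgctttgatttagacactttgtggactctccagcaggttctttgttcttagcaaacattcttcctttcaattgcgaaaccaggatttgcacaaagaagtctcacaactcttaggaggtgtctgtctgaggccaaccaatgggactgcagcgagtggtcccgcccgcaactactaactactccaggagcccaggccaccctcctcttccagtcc
Acot2: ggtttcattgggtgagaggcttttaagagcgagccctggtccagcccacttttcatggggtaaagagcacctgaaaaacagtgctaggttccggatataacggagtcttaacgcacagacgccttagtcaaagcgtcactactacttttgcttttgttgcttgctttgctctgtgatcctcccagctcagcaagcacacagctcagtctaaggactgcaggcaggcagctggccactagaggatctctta
Pdk4: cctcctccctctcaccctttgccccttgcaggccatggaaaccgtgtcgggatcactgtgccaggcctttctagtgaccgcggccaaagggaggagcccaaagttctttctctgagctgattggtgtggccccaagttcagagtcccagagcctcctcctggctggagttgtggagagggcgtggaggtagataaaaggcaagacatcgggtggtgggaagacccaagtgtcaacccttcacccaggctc

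Uptake and binding came next in the pathway. Cd36, the fatty acid translocase, read 915 to 1374 and was above background on 1 of 6 arrays. Fabp3, the fatty acid binding protein of heart, read 49503 to 69971 on titles 1 to 3 and 38003 to 65603 on titles 4 to 6. Its sets overlapped, with a difference of 0.15 ± 0.24, which was -0.33 without wild type replicate 3 and -0.10 after quantile normalization.

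The carnitine shuttle was uneven. Cpt1a, the outer membrane transferase that sets the pace of the pathway in liver, read 966, 944 and 1031 on titles 1 to 3 and 1107, 1006 and 957 on titles 4 to 6. It was not above background on any array, and no fold is given. Slc25a20, the translocase of the inner membrane, read 35782 to 39620 against 17876 to 32219, without overlap. Its difference was 0.71 ± 0.18 and 0.35 without wild type replicate 3, while Cpt2, the inner transferase, had 0.40 ± 0.18 and 0.087. A dimmer kept probe of Slc25a20, ILMN_3061070, overlapped between the sets, with 0.31 ± 0.20 and -0.11 without that array.

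The 10 genes of the mitochondrial beta-oxidation cycle had a median difference between the sets of 0.63, and 0.44 without wild type replicate 3. In 9 of the 10 the sets did not overlap, where 19.5% of named genes were higher on titles 1 to 3 without overlap. None of the 10 passed the threshold. The dehydrogenases open each round, for chains of different length. Acadl, for long chains, read 16474, 23123 and 17121 on titles 1 to 3 and 14237, 8287 and 13150 on titles 4 to 6. The second set was lower throughout, with wild type replicate 3 lowest by far, and the difference of 0.77 ± 0.24 became 0.27 without that array. Acadm, for medium chains, read 111334, 113309 and 96643 against 76163, 63672 and 79709. Here all 3 arrays of the second set were low, and the difference of 0.62 ± 0.13 was 0.51 without wild type replicate 3. Acads, for short chains, and Acadvl, for very long chains, differed by 0.75 ± 0.16 and 0.58 ± 0.16, or 0.47 and 0.40 without that array.

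Hadha and Hadhb encode the subunits of the trifunctional protein, which carries out the later steps on long chains. Their RefSeq promoter windows overlap by 228 bases on opposite strands, so these genes start within a shared region and run apart. Hadha read 5115, 7234 and 5121 on titles 1 to 3 and 4348, 2903 and 2944 on titles 4 to 6. No array of the second set reached the first, and the difference was 0.79 ± 0.23, or 0.52 without wild type replicate 3. Hadhb read 118445 to 134521 against 75816 to 94708, also without overlap, and its difference of 0.65 ± 0.12 hardly depended on that array, at 0.62 without it. Hadhb also passed the threshold when dim probes were not filtered.

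Acaa2, the thiolase that ends each round, read 25165, 28854 and 23913 on titles 1 to 3 and 16376, 10507 and 18191 on titles 4 to 6. The sets did not overlap, and the difference was 0.93 ± 0.20, or 0.54 without wild type replicate 3. Its 3 dimmer probes overlapped between the sets. They gave 0.31 to 0.44 with all arrays and -0.10 to 0.069 without wild type replicate 3, so the probes of this gene disagree. Hadh, the dehydrogenase for shorter hydroxyacyl chains, read 1475, 2051 and 1745 against 1767, 1448 and 1683. These overlapped, with a difference of 0.08 ± 0.17 that was -0.12 after quantile normalization. Decr1 and Eci1, which handle double bonds, differed by 0.35 ± 0.15 and 0.45 ± 0.16, or 0.089 and 0.22 without wild type replicate 3.

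Etfa, Etfb and Etfdh pass electrons from the dehydrogenases to the respiratory chain. Etfdh, the oxidoreductase in the inner membrane, read 29568, 35739 and 23287 on titles 1 to 3 and 21684, 3000 and 22095 on titles 4 to 6 with its brightest probe, ILMN_2669804. A single array, wild type replicate 3, was low, and the other arrays of that set nearly reached the first set. The difference of 1.85 ± 0.56 therefore became 0.43 without it. Its 3 other probes differed by 0.34 to 0.72 between the sets, so the probes of this gene disagree. Etfa and Etfb, the soluble flavoprotein, had 0.28 ± 0.16 and 0.43 ± 0.16, and 0.055 and 0.15 without wild type replicate 3.

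In peroxisomes, Ehhadh encodes the bifunctional enzyme, a classic target of PPAR alpha in liver. It read 9626, 10841 and 8650 on titles 1 to 3 and 7862, 5485 and 7671 on titles 4 to 6. The sets were apart by a small margin, and the difference was 0.57 ± 0.16, or 0.31 without wild type replicate 3. Hsd17b4, a second multifunctional enzyme, and Acaa1a, a peroxisomal thiolase, differed by 0.64 ± 0.16 and 0.33 ± 0.14, or 0.41 and 0.14 without that array.

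Bdh1, the dehydrogenase that links the ketone bodies, showed little difference between the sets, like Acot2 and Hadh. It read 6232, 5370 and 4876 on titles 1 to 3 and 7762, 4386 and 6627 on titles 4 to 6. The sets overlapped, with a difference of 0.0099 ± 0.15, and -0.32 after quantile normalization. The genotypes did not overlap, with 6232 to 7762 on the knockout arrays and 4386 to 5370 on the wild type arrays. Of all named genes, 6.66% were higher in knockout without overlap. The other Bdh1 probe, ILMN_2708928, was not above background on any array and was not kept.

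Between the genotypes, none of the 28 genes passed the test. The number with a limma adjusted p under 0.05 was 0, where 0.0169% of 11868 named genes and 0.0133% of all kept probes passed. At an unadjusted p under 0.05, 4 genes were higher in knockout, where 13.7% of named genes were, and 0 were lower, where 0.758% were. The variance model with a trend, array weights and the mean over a gene's probes, all in limma, also gave 0 genes. The median difference was 0.24 against 0.17 over all kept probes. After quantile normalization it was 0.0048 against 0.0014, and 14 of the 28 genes lay above 0 in place of 26. Without wild type replicate 3 it was 0.027 against 0.039.

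Bdh1 was the only gene of the 28 whose genotypes did not overlap, where 6.66% of named genes were higher in knockout without overlap and 0.817% lower. Its mean was 6873 ± 794 in knockout and 4878 ± 492 in wild type (SD, n = 3 each). The difference was 0.50 ± 0.15 with a limma adjusted p of 0.399, and the exact two-sided permutation test gave 0.1, the smallest value that 3 against 3 arrays allow. Without wild type replicate 3 the difference was 0.28, and after quantile normalization 0.22. Acot1, Acads and Etfdh, the other genes with an unadjusted p under 0.05, had differences of 0.38 ± 0.15, 0.54 ± 0.16 and 1.45 ± 0.56, each with a limma adjusted p of 0.399. Without wild type replicate 3 these were 0.37, 0.26 and 0.036, and after quantile normalization 0.14, 0.26 and 1.18. For Acot1 the value was 0.37 within titles 1 to 3 and 0.40 within titles 4 to 6. For Etfdh it was 0.036 and 2.87, and the single low wild type array enters only the second.

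Within the sets the genotype difference was not the same in size. Among titles 1 to 3 the median of the 28 genes was 0.027, with 16 above 0, beside 0.039 over all kept probes. Among titles 4 to 6 it was 0.43, with 25 above 0, beside 0.29 over all kept probes. The only wild type array of the second set is wild type replicate 3. In the limma interaction of genotype and set, Etfdh was the only one of the 28 genes past an adjusted p of 0.05, where 0.708% of named genes passed. Angptl4 and Pdk4, which differed between the sets, had genotype differences of 0.016 ± 0.14 and 0.17 ± 0.22, with limma adjusted p of 0.957 and 0.679, and -0.11 and -0.12 after quantile normalization.

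**Figure D3:**
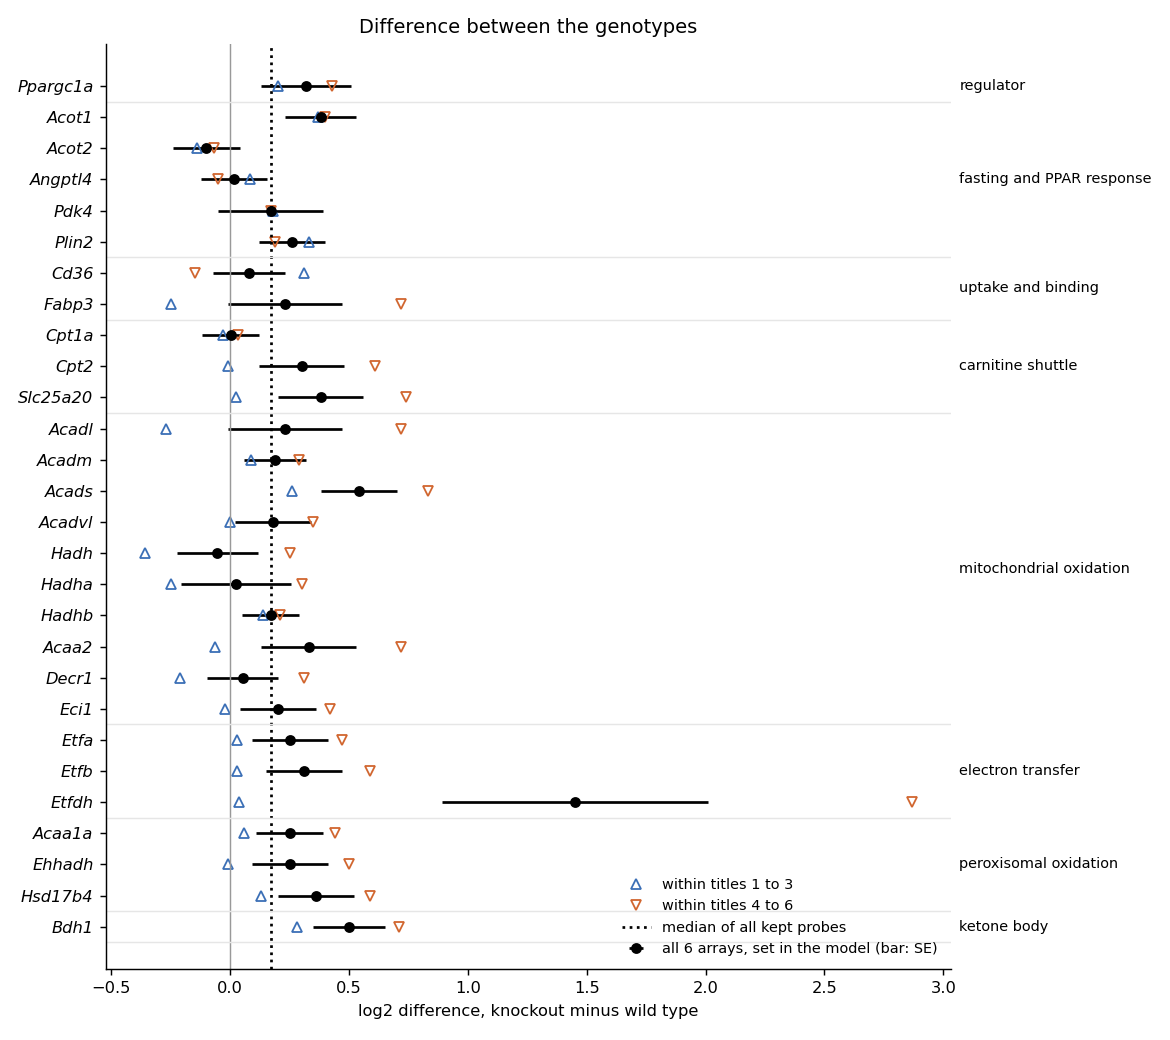
Differences between knockout and wild type (log2, horizontal axis) for the 28 genes, in blocks by role. Filled points are the fit to all 6 arrays with bars of 1 standard error, upward triangles the difference within titles 1 to 3, downward triangles within titles 4 to 6, and the dotted line is the median of all kept probes at 0.17. Most downward triangles lie right of the upward ones, and Etfdh reaches 2.87 within titles 4 to 6.

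Other PPAR targets, of which 17 were kept, had a median difference between the sets of 0.40, or 0.43 without wild type replicate 3, and 15 lay above the median of all probes. None passed the threshold. Mgll, the monoglyceride lipase, read 21808 to 24999 on titles 1 to 3 and 10346 to 18767 on titles 4 to 6, with a difference of 0.80 ± 0.17. The peroxisome factor Pex11a and the muscle transferase Cpt1b had 0.41 ± 0.18 and 0.36 ± 0.14. Cyp4a14, Ucp3 and Fabp4 were not kept, and Slc22a5, the carnitine carrier, had 0.28 ± 0.20 and -0.093 without wild type replicate 3. Fgf21, the fasting hormone, read 7018 on wild type replicate 3 and 910 to 972 elsewhere, where it was not above background.

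Among 26 other kept genes of fatty acid oxidation the median was 0.26, or 0.17 without wild type replicate 3, and 15 lay above the median of all probes. Eci2, an enoyl-CoA isomerase named after its values were seen, was the only gene of these further lists past the threshold. It read 26178, 25095 and 16691 on titles 1 to 3 and 9599, 9389 and 8063 on titles 4 to 6. The sets were well apart in both genotypes, with a difference of 1.35 ± 0.20, or 1.12 within the wild type arrays and 1.57 within the knockout arrays. Ech1, which moves double bonds, had 0.81 ± 0.18 and Crat, the carnitine acetyltransferase, 0.50 ± 0.18. Of the genes that use ketone bodies, Oxct1 had 0.13 ± 0.14. Acat1 read 1320 to 1990 on titles 1 to 3, was not above background on titles 4 to 6, and was at least 1.3-fold higher on the former.

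The 14 kept genes of lipid droplets and lipolysis had a median of 0.44, with and without wild type replicate 3, and 13 lay above the median of all probes. Pnpla2, the lipase that starts triglyceride breakdown, read 37326 to 54677 against 28084 to 34966 without overlap, and differed by 0.68 ± 0.16. Plin5, which ties droplets to mitochondria, read 1232 to 1367 on titles 1 to 3 and was not above background on titles 4 to 6, at least 1.1-fold lower. Genes of fatty acid uptake and activation, 13 of them, had 0.28, and -0.0027 without that array.

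Of 18 kept regulators of PPAR signalling, 11 lay above the median of all probes, and their median was 0.30. The other receptors did not share the pattern of Acot1. Ppard read 39192 to 44920 on titles 1 to 3 and 26318 to 44814 on titles 4 to 6, and Pparg 33303 to 39162 against 23825 to 57981, with differences of 0.33 ± 0.18 and -0.0016 ± 0.28. Without wild type replicate 3 these were -0.017 and -0.63. Rxra, the partner receptor, had 0.17 ± 0.13, and the estrogen-related receptors Esrra and Esrrg had 0.11 ± 0.21 and 0.42 ± 0.17.

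Markers of fasting and glucocorticoid action were mixed, with 11 of 19 above the median of all probes and a median of 0.29. Fkbp5, a glucocorticoid target, read 14577, 10102 and 12083 on titles 1 to 3 and 3118, 5817 and 6770 on titles 4 to 6. The sets did not overlap, and the difference was 1.30 ± 0.32, which did not pass the threshold. Txnip, which limits glucose uptake, had 0.74 ± 0.17. Tsc22d3, Per1 and Klf15, further glucocorticoid targets, overlapped between the sets, with 0.37 ± 0.18, 0.39 ± 0.35 and -0.27 ± 0.18. Pdk2, a relative of Pdk4, had 0.72 ± 0.16, in a list of 9 genes of uncoupling and pyruvate dehydrogenase with a median of 0.19. Ucp1 was not above background on any array.

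Fatty acid synthesis did not follow the oxidation genes, with 2 of 12 genes above the median of all probes and a median of -0.038. Scd1, the stearoyl-CoA desaturase, had -0.050 ± 0.24, which was 0.50 without wild type replicate 3. Fasn, the synthase, had 0.32 ± 0.14, and Srebf1, which governs the program, -0.34 ± 0.18. Oxidative phosphorylation and the citrate cycle, the other large group of mitochondrial genes, had a median of 0.088 over 24 genes, with 9 above the median of all probes. Cs, the citrate synthase, and Cox4i1, a subunit of cytochrome oxidase, had 0.36 ± 0.18 and 0.23 ± 0.14, and -0.0025 and 0.093 without wild type replicate 3. The circadian clock genes had a median of 0.17 over 13 genes. Arntl and Dbp, which peak at opposite times of day in other tissues, had 0.58 ± 0.17 and -1.03 ± 0.45, and in both the sets overlapped. Dbp was high only on wild type replicate 3 and knockout replicate 3, at 18094 and 17411, and read 4947 on knockout replicate 2. Of the 13 clock genes, 9 had a difference above 0, among them Nr1d1 and Tef at 0.28 ± 0.29 and 0.17 ± 0.24. The difference of these lists from the 28 genes was not tested.

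**Figure D4:**
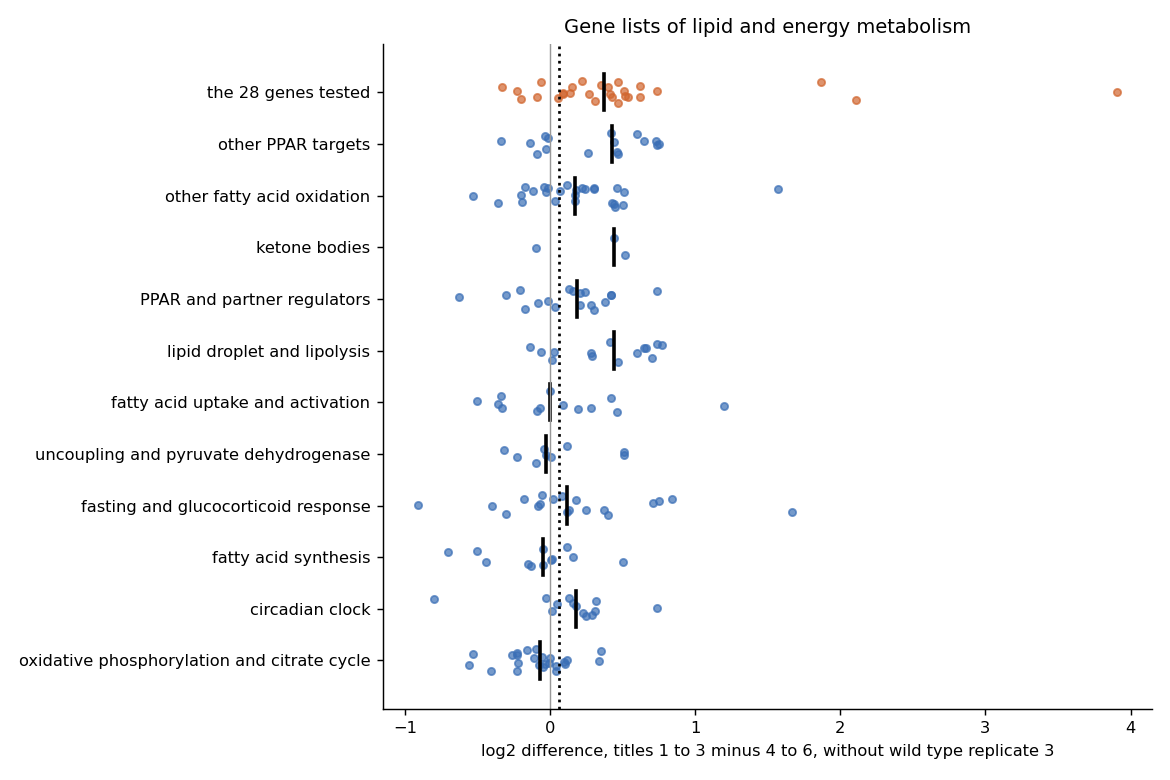
Difference between arrays titled 1 to 3 and 4 to 6 (log2, horizontal axis), fitted without wild type replicate 3, for the 28 genes (orange) and for 11 other lists (blue). Each point is 1 gene, thick bars are list medians and the dotted line is the median of all kept probes at 0.059. The 28 genes have a median of 0.38, lipid droplet genes 0.44 and other PPAR targets 0.43, against -0.067 for oxidative phosphorylation and the citrate cycle and -0.050 for fatty acid synthesis.

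Markers of other tissues moved with the sets as well. The 13 squamous markers summed to 23609 to 766195 on titles 1 to 3 and 12542 to 17370 on titles 4 to 6, and the 8 smooth muscle markers to 67658 to 252808 against 39586 to 68238. Their part in the differences above was not tested. On titles 1 to 3, Lor read 399114, 10048 and 274920, and Acot1 read 50752, 45752 and 33706. On titles 4 to 6, Lor read 3355, 1759 and 2027, and Acot1 read 3588, 2573 and 3192. The sets did not overlap in either gene. The 12 pancreatic markers summed to 254298 to 328720 against 152705 to 6934660. On titles 1 to 3, Cela2a read 1288 to 2400, Cela3b 886 to 1050 and Prss2 790 to 1401. The sums there came mostly from other genes of the list. Without both arrays high in pancreatic transcripts, knockout replicate 2 alone is left on the side of titles 4 to 6. The median set difference of the 28 genes was then 0.27.

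Markers of other tissues that burn fat were mixed. Of 9 adipocyte markers, 4 were not above background on any array, among them Fabp4, and Adipoq was above it only on knockout replicate 1, at 1518. The 9 adipocyte markers summed to 124395 to 147902 on titles 1 to 3 and 134446 to 168756 on titles 4 to 6. Most of these sums was 1 gene, Lpl, at 109706 to 131120 and 122117 to 152041. Lpl is also on the list of other PPAR targets, so the sums say little about the other adipocyte markers. Of 9 skeletal and cardiac muscle markers, 7 were not above background on any array, Ckm among them, while the cardiac troponin Tnni3 read 4332 to 7388 and was above background on all 6. The sums of the muscle markers, 12532 to 14389 and 11900 to 13312, overlapped. Of 8 hepatocyte markers, 2 were not above background on any array, among them Alb, the liver's albumin. The list summed to 399128 to 423773 on titles 1 to 3 and 418895 to 539122 on titles 4 to 6, and the apolipoprotein Apoa1, which the gut also makes, was bright on all arrays. The 8 parietal markers summed to 1303581 to 1403423 against 1276515 to 1527025.

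Beyond these pathways, the named genes with the largest differences between the sets were those same tissue transcripts. They were Lor and Krtdap of squamous epithelium, higher on titles 1 to 3, and Cela2a, Cela3b and Prss2 of the pancreas, higher on wild type replicate 3 and knockout replicate 3. None of these 5 passed the threshold. Lor read 10048 to 399114 within titles 1 to 3, and Cela2a 1368 to 647587 within titles 4 to 6. Whether such tissue has a part in the difference of Acot1 was not tested.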

How the data were processed

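Total RNA of 6 gastric samples was amplified to biotin-labelled cRNA with a MessageAmp kit for Illumina arrays, per the labels' protocols. The deposited table gives 1 linear probe intensity per array, which the values show the authors had scaled to a median of 1000 without subtracting background (lowest value 541.9). The scanner, its software and a genome build were not given in the sources used here.

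Of 45281 probes, 34885 had 1 gene symbol in the platform annotation, 18 several and 10378 none, and 34807 matched the GRCm38.p6 gene table, which was used for names and gene order. Intensities were floored at 16, which no value reached, and log2 transformed. The brighter part of the probes, with means above the median probe's, was kept: 22640 probes of mean 991 or more, with 11868 named genes. The model was fitted in R 4.3.3 by limma 3.58.1 (lmFit, eBayes), with genotype and title-number set as terms, two-sided, and Benjamini-Hochberg adjustment over all kept probes at 0.05. The 3 arrays per group limit the precision. Probes above the background bound made up 35.8% (wild type replicate 3) to 48.5% (knockout replicate 1) of an array.

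The genes and lists were chosen with earlier results of these data known. Values per array are given for the 8 largest and 4 smallest set differences and for Ppara, Ppargc1a, Cpt1a, Acadm, Hadha and Ehhadh; genes of other lists, and the 5 non-members with the largest set differences, were named by a written rule, with Eci2 added after its values were seen. Replicate numbers did not pair the samples: deviations from the group means correlated at 0.0445, -0.299 and 0.527 for numbers 1, 2 and 3. On simulated data with 22640 probes, the fit called 29 of 50 probes changed 2-fold between the sets and 42 of 50 changed 4-fold. There were 3 false calls. Between the genotypes it called 21 of 50 and 35 of 50, with 0 false calls. The simulated noise was independent for each probe, without effects shared over an array, so these figures may not hold for the real arrays. Alternatives were other normalizations, filters, variance models, array weights, blocks, the mean of a gene's probes, another threshold and leaving out arrays. Promoter windows are RefSeq's. Plots were made in Python 3.11.15 using matplotlib 3.10.9.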

Additional observations from a re-analysis of the deposited data

Results flagged for a closer look

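The genotype difference of 2 genes differed between the title-number sets by limma's interaction term. For Etfdh the interaction was -2.83 (log2, titles 1 to 3 minus 4 to 6, limma adjusted p = 0.0178), with a knockout minus wild type difference of 0.036 within titles 1 to 3 and 2.87 within titles 4 to 6. For Fgf21, outside the 28 genes, it was 2.97 (limma adjusted p = 0.00115), with 0.078 and -2.90. Both rest on 1 array: wild type replicate 3, the only wild type array of titles 4 to 6, read 3000 for Etfdh, where the other arrays read 21684 to 35739, and 7018 for Fgf21, where the other arrays were not above background. The 3 other Etfdh probes had interaction adjusted p of 0.540, 0.894 and 0.713 in limma. Within each genotype the sets were not tested for arrays that stand apart, since groups of 3 are too small.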

How the results depend on the processing

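Arrays this few limit every count, and dim genes such as Ppara and Cpt1a have no level here. Between the sets, the median over the 28 genes was 0.57 and became 0.35 with quantile, 0.33 with cyclic loess and 0.32 with normexp and quantile normalization, 0.85 without both arrays with squamous transcripts and 0.27 without both with pancreatic transcripts. Leaving out 1 array gave 0.38 (wild type replicate 3) to 0.72 (knockout replicate 1). The count of 3 genes past the threshold became 10 of 24 under the stricter filter on dim probes, 13 with a variance trend and robust fit, 15 at an adjusted p under 0.1 (where 15.8% of named genes passed) and 23 without the squamous arrays, where wild type replicate 1 is the only array of titles 1 to 3 and is assumed to vary like the others, and 1 (without knockout replicate 3) to 19 (without knockout replicate 1) when 1 array was left out. Acot1 stayed past the threshold in all of these, and in array weights with Angptl4. Between the genotypes, the median of 0.24 became 0.0048 with quantile, -0.0014 with cyclic loess and 0.0053 with normexp and quantile normalization, 0.026 with genotype alone, 0.43 without the squamous and 0.027 without the pancreatic arrays, and 0.027 to 0.43 when 1 array was left out. The count of 0 became 0 to 4 when 1 array was left out. The 4, without knockout replicate 1, were Slc25a20, Acads, Bdh1 and Etfdh, where 8.43% of all kept probes passed. For the fit without the squamous arrays no genotype count is given either. With the replicate number as a block in place of the set, the genotype median was 0.026 and 0 genes passed; with the block beside the set, the set median was 0.35, 0 genes passed between the sets, Acot1 included, and the genotype median was 0.16. Of all 22640 kept probes, 164 passed between the sets, 631 with quantile, 449 with cyclic loess and 636 with normexp and quantile normalization. The number was 384 of 45281 probes without the filter and 1319 of 15094 under the stricter filter. With the variance trend it was 2375, with array weights 40 and with the replicate block 1. It was 1 to 4349 when 1 array was left out, with 4349 without knockout replicate 1. Between the genotypes 3 passed, 21 with the variance trend and 5 of 15094 under the stricter filter. That number was 0 to 1908 when 1 array was left out, with 1908 without knockout replicate 1. The sign held in every alternative for 20 of the 28 genes between the sets and for 10 between the genotypes. The causes were not tested.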
